A study of Arabidopsis thaliana with 6 samples.

Results

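Transcripts of 3 *Arabidopsis thaliana* genes assigned to the lower part of glycolysis, between 3-phosphoglycerate and pyruvate, were compared between wild-type seedlings and the double mutant gapcp1gapcp2. The genes were AT5G04120 (phosphoglycerate mutase family), AT3G49160 (pyruvate kinase family) and AT4G15530 (PPDK, pyruvate phosphate dikinase). They are 3 of the 256 loci that the authors' deposited table pairs with a probe set of their own, and each has 1 probe set. That table holds only probe sets that differed between the genotypes. The header of the authors' separate fold change file gives a filter of fold over 2, difference over 100 and p of at most 0.05. The probe sets of the deposited table keep to these limits, with a lowest fold of 2 and a lowest difference of 100.25. That this filter, called the authors' filter below, made the table is inferred. The genes were thus selected on the difference in intensity between the genotypes, which is described below without a test.

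The 6 one-colour arrays measured total RNA of whole Col-0 seedlings aged 15 days, with 3 biological replicates of wild type and 3 of gapcp1gapcp2. All plants grew on vertical plates of dilute medium with vitamins in long days, and no treatment separated the groups. The material is given here as titles, source names and the series design state it, while the description fields speak of embryo stages and were set aside. The double mutant is named for the genes GAPCP1 and GAPCP2, and no source used here gives the kind of allele. No probe set of either gene could be named, so the targeted transcripts did not check the labels. Values are intensities on a linear scale, and the median of an array lay between 110.7 and 117.1 over its 22746 probe sets. In RNA of whole seedlings, fewer cells of a type and less RNA per cell cannot be told apart.

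Glycolysis runs in plants both in the cytosol and in plastids. GAPCP enzymes act in the plastid pathway just above 3-phosphoglycerate, which a mutase turns into 2-phosphoglycerate, an enolase into phosphoenolpyruvate and pyruvate kinase into pyruvate with a gain of ATP. PPDK interconverts pyruvate and phosphoenolpyruvate with ATP, phosphate and pyrophosphate and can run towards phosphoenolpyruvate. The enzymes known to carry the mutase step in plants are the cofactor-independent iPGAM1 and iPGAM2, while AT5G04120 carries the name of the cofactor-dependent mutase family, whose fold is shared with phosphatases. An annotation by family does not show which reaction a protein catalyses.

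The 3 transcripts did not differ in a common direction. The mutase-family transcript AT5G04120 was far higher in gapcp1gapcp2, PPDK was moderately higher, and the pyruvate kinase-family transcript AT3G49160 was lower. For each of the 3, the wild-type and mutant arrays did not overlap. Over the whole array, 15.5% of probe sets were higher in the mutant without overlap and 16.6% lower without overlap. With limma on log2(intensity + 16) at an adjusted p under 0.05, 5.86% of all probe sets were called higher and 5.13% lower. The 3 genes were among those called, which says nothing further because the same contrast chose them.

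**Figure D1:**
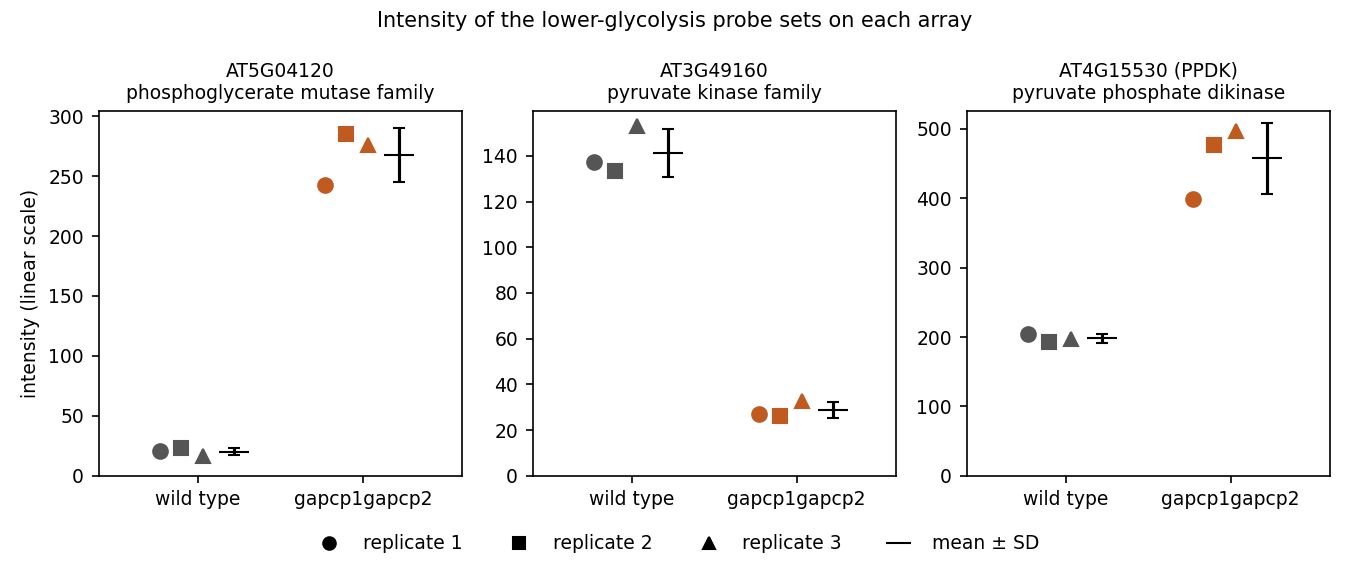
Intensity on each array (y axis, linear scale from 0) of the 3 probe sets in wild type (grey) and gapcp1gapcp2 (orange). Symbols mark the replicate number and the black mark with its bar is the mean ± SD of 3 arrays. The 2 groups are apart in every panel, with the mutant above wild type for AT5G04120 and PPDK and below it for AT3G49160.

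On the wild-type arrays, taken from replicate 1 to 3, AT5G04120 had intensities of 20.58, 22.89 and 16.75. On the mutant arrays in the same order it had 242.56, 285.23 and 275.72. It was thus dim on all wild-type arrays and clearly above them on all mutant arrays. The means were 20.1 ± 3.10 in wild type and 268 ± 22.4 in the mutant (SD, n = 3 each), a ratio of 13.3. The lowest mutant array was 10.6 times the highest wild-type array, and the highest mutant array was 17.0 times the lowest wild-type array. The wild-type spread was not large for a dim signal, since the 1867 probe sets with a wild-type mean between 15 and 25 had a median SD of 6.08. On the log2(intensity + 16) scale the change was 2.98 ± 0.10 (SE from limma, here and below, which draws on the variance of all probe sets). That size depends on the constant added, with 3.68 at a constant of 1 and 1.98 at 64, because the wild-type signal is close to the constant. The files hold no detection calls, so whether the transcript was present in wild type is unknown.

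The intensities of PPDK in that order were 204.28, 192.3 and 197.49 on the wild-type arrays. They were 398.62, 476.38 and 497.01 on the mutant arrays. The wild-type arrays lay close together and the mutant arrays were more spread, with replicate 1 the lowest. The means were 198 ± 6.01 and 457 ± 51.9 (SD, n = 3 each), a ratio of 2.31. Taken array against array, the mutant was between 1.95 and 2.58 times the wild type. The coefficient of variation was 3.03% in wild type and 11.3% in the mutant. The log2 change was 1.14 ± 0.10 (SE), with 1.20 at an added constant of 1 and 0.99 at 64. It moved less with the constant than AT5G04120 and AT3G49160, but at 64 it moved by more than 1 within-group SD. *Arabidopsis* is known to make both a plastid and a cytosolic form of PPDK from this gene by using different transcription starts. RefSeq lists 7 transcripts for it, and which of them the probe set detects was not examined here, so the value stands for the locus and not for a form.

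AT3G49160 was the one gene of the 3 that was lower in gapcp1gapcp2. Its intensities were 137.15, 133.54 and 152.99 on the wild-type arrays, and the mutant arrays had 27.06, 26.25 and 32.86. Wild type was above the mutant on every array, by 4.06 to 5.83 times. The means were 141 ± 10.3 and 28.7 ± 3.61 (SD, n = 3 each), and wild type was 4.92 times the mutant. The log2 change was -1.81 ± 0.09 (SE), with -2.26 at an added constant of 1 and -1.15 at 64. Here the mutant signal is the one near the constant, and in AT5G04120 it is the wild-type signal. None of the other pyruvate kinase loci in the lists below had a named probe set.

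**Figure D2:**
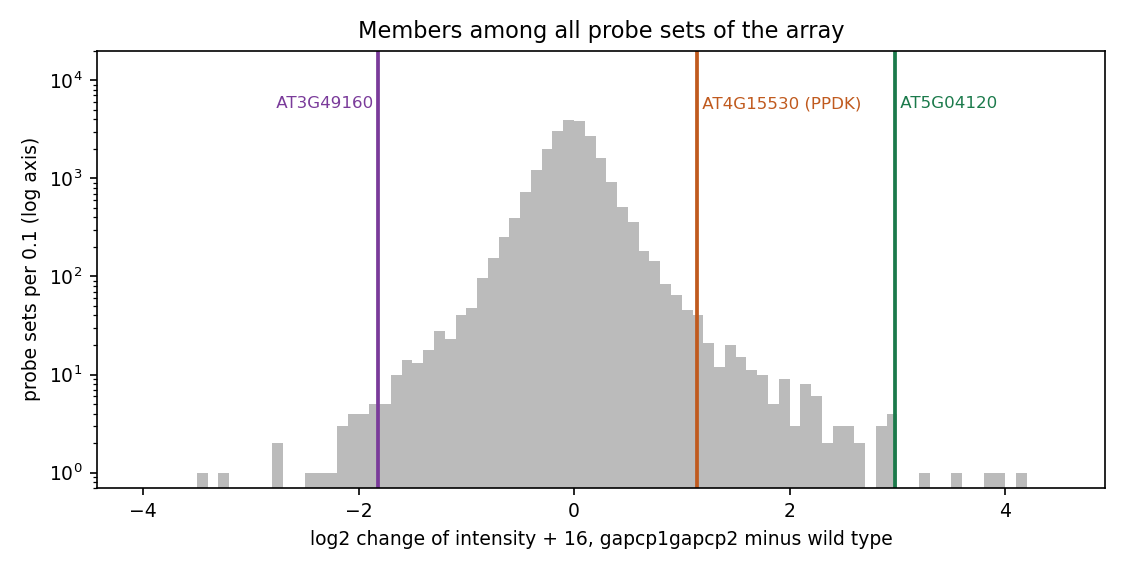
Number of probe sets (y axis, log scale) by log2 change of intensity + 16 between gapcp1gapcp2 and wild type (x axis), with the 3 genes as vertical lines. AT5G04120 at 2.98 stands near the upper end of the scale used, AT3G49160 at -1.81 in the lower tail and PPDK at 1.14 in the upper shoulder.

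Among all probe sets, 6 had a higher log2 change than AT5G04120, and all 6 belong to a named locus. A lower log2 change than that of AT3G49160 was found for 22 probe sets, 15 of them named. PPDK had 157 probe sets above it, 105 of them named. These places depend on the added constant. At constants of 1 and 64, 10 and 12 probe sets were beyond AT5G04120, 75 and 49 beyond AT3G49160, and 486 and 116 beyond PPDK. By the fold change in the authors' deposited table, AT5G04120 was number 10 and PPDK number 109 of the 157 higher loci, and AT3G49160 was number 7 of the 99 lower ones. In absolute terms the order differed. The difference of means was 248 intensity units for AT5G04120 and 259 for PPDK, so these 2 genes were similar in units and far apart in ratio. AT3G49160 differed by fewer units, with -112.5.

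The authors' deposited table gives AT5G04120 a fold change of 10.3 (bounds 7.79 and 14.83), AT3G49160 -4.82 (bounds -3.84 and -6.31) and PPDK 2.34 (bounds 2 and 2.7). PPDK thus lies nearest to the fold filter and AT3G49160, with a difference of -111.64 in the authors' deposited table, nearest to the difference filter. The authors' deposited table has a wild-type mean of 26.02 for AT5G04120, which lies above all 3 wild-type arrays. Its wild-type mean of 188.52 for PPDK lies below all 3 wild-type arrays. Those of AT3G49160 are within the range of the arrays in both genotypes. In all, 50 of the 274 probe sets in the authors' deposited table have a group mean outside that range, so its fold changes are not repeats of the ratios above. The header of the authors' separate fold change file numbers baseline arrays up to 12. Whether the deposited table rests on the 6 arrays as deposited is unknown.

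Within a genotype the 3 transcripts shared only part of their variation. Mutant replicate 1 had the lowest mutant value of both AT5G04120 and PPDK, which were 2.85 and 0.95 above the wild-type mean on the log2 scale there, against 3.07 and 1.20 in replicate 2 and 3.02 and 1.26 in replicate 3. For AT3G49160 the same differences were -1.87, -1.89 and -1.68, so replicate 3 lay nearest to wild type. Mutant replicate 1 was also the lowest mutant array for 118 of the 157 loci with a higher mean in the mutant in the authors' deposited table, against 19 and 20 loci for replicates 2 and 3. The weaker signal of AT5G04120 and PPDK on that array is therefore shared with most of the higher loci. The 99 lower loci did not show the same. Their highest mutant value was in replicate 1 for 28 loci, in replicate 2 for 47 and in replicate 3 for 24. Without mutant replicate 1 the log2 changes were 3.04 for AT5G04120 and 1.23 for PPDK. Deviations from the group means over the 6 arrays correlated at 0.56 between AT5G04120 and PPDK, at 0.43 between AT3G49160 and PPDK and at -0.35 between AT5G04120 and AT3G49160. These are descriptions of 6 arrays that share the 2 subtracted means.

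The steps down to pyruvate were followed in a list of 25 loci that covers phosphoglycerate kinases, which form 3-phosphoglycerate, and mutases, enolases, pyruvate kinases and PPDK. The 3 genes above were the ones with a named probe set, 2 higher and 1 lower in the mutant. Here and in the lists below, a named probe set is one of 1 locus that passed the authors' filter, as 256 of the array's 22746 did. All lists were chosen with earlier results of these data known, so these counts do not measure a response of a pathway. Among the loci that the authors' filter let through, the median log2 change was 1.41 for the 157 higher and -1.33 for the 99 lower ones, so AT5G04120 and AT3G49160 lay beyond the median of their direction and PPDK short of it. The other 22 loci, among them PGK1, iPGAM1, iPGAM2, ENO1, LOS2 and the plastid pyruvate kinase gene PKP-ALPHA, have no named probe set and their values are unknown here. The same holds for all 12 loci around phosphoenolpyruvate, which include the PPDK regulatory protein genes RP1 and RP2, the phosphoenolpyruvate translocator gene CUE1 and the phosphoenolpyruvate carboxylase genes. No locus of the phosphorylated serine pathway, which starts from 3-phosphoglycerate (6 loci), of the glyceraldehyde-3-phosphate dehydrogenase family (8 loci) or of fermentation (6 loci) was named. Of the 10 loci of the mutase and histidine phosphatase family, AT5G04120 was the one named.

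Upstream of these steps, 5 of 13 sugar and starch loci had a named probe set, where 256 of all 22746 probe sets were named. This list too was chosen with earlier results known. All 5 were higher in gapcp1gapcp2, where 157 of all 256 named loci were higher. They have a value here because they passed the authors' filter, so that they differed was fixed by the choice. Their median log2 change was 1.76, beside the 1.41 of all higher loci. SWEET13, a sucrose exporter gene, and GBSS1, which makes amylose in starch granules, had log2 changes of 2.43 ± 0.06 and 2.40 ± 0.14 (SE). GPT2, which carries glucose 6-phosphate into plastids, had 1.76 ± 0.09. SUS4, a sucrose synthase gene, and APL3, a subunit gene of the starch precursor enzyme, had 1.62 ± 0.09 and 0.96 ± 0.09. GBSS1 had mutant intensities of 662.14, 925.89 and 936.16, and it shared with PPDK the lower value in mutant replicate 1. GPT2, SUS4 and APL3 also had their lowest mutant value there, as did 118 of the 157 higher loci, so this is not particular to GBSS1 and PPDK. SWEET13 had 366.17, 354.74 and 361.8 and was not lowest in replicate 1.

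PPDK is known to be expressed in senescing leaves, where it takes part in moving nitrogen out of the leaf. Of 7 loci listed for senescence and nutrient remobilisation, 3 had a named probe set and they did not share a direction. SAG29, a sugar transporter gene of late senescence, was higher, with 39.97, 50.92 and 61.08 in wild type and 159.63, 164.12 and 194.14 in the mutant. SEN1, a gene known to be induced by darkness, was lower (log2 change -1.16 ± 0.11 SE), and so was ERD5, which encodes a proline dehydrogenase (-1.09 ± 0.10 SE). SAG12 and SAG13, further senescence markers, had no named probe set.

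**Figure D3:**
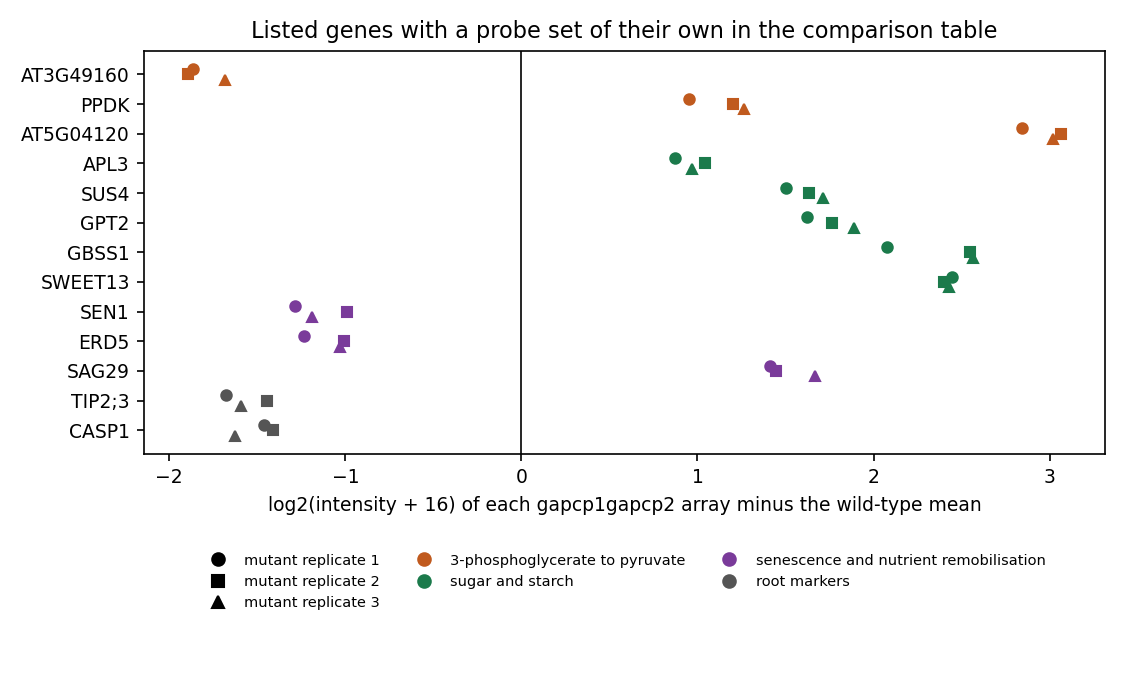
Log2(intensity + 16) of each mutant array minus the wild-type mean (x axis) for the 11 listed genes and 2 root markers with a named probe set (y axis). Symbols give the mutant replicate and colours the list. The 5 sugar and starch genes and SAG29 lie to the right of 0 with AT5G04120 and PPDK, and SEN1, ERD5 and the root markers lie to the left with AT3G49160.

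Root tissue markers could be followed only where the authors' filter had selected them. Of 3 root markers, CASP1, an endodermis gene, and TIP2;3, a gene for a vacuolar membrane channel, had a named probe set, and none was at 0. Their summed intensity was 1073 to 1123 in wild type and 338 to 392 in the mutant. The log2 changes were -1.50 ± 0.08 for CASP1 and -1.57 ± 0.08 for TIP2;3 (SE), near the median of -1.33 of the 99 lower loci and beside -1.81 for AT3G49160. The part of root tissue in the values of the 3 genes was not tested. None of the 5 shoot markers had a named probe set.

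For each of the 3 genes, the named loci with the most similar profile were taken by Pearson's r over the 6 arrays on the log2(intensity + 16) scale. Such an r is set mostly by the gap between the genotypes, which all candidates have by their selection. Nearest to AT5G04120 were CRK4, a receptor-like kinase gene, PS2, a phosphatase gene known from phosphate starvation, and AT5G26220, of the ChaC-like family, each at an r of 0.999. CRK4 went from 70.1 ± 7.51 to 279 ± 10.6 and PS2 from 111 ± 5.51 to 784 ± 28.5. Nearest to PPDK were AT3G28220, GBSS1 and SPD1, each at 0.999, and SPD1 went from 351 ± 17.9 to 756 ± 62.5. The starch gene GBSS1 is thus both a listed gene and among the profiles closest to PPDK. Nearest to AT3G49160 were AT3G13760, of the DC1 domain family, AT1G05340 and the zinc transporter gene ZIP3, at 0.998, 0.998 and 0.997. ZIP3 went from 164 ± 13.4 to 43.7 ± 3.92.

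The likeness that remains once the group means are taken away named other loci. For AT5G04120 these were AT3G06390 (r = 0.967), the oligopeptide transporter gene OPT3 (0.953) and HIR2 (0.949). The first and last of these are lower in the mutant, with log2 changes of -2.41 and -1.06, and OPT3 is higher, with 1.54. Likeness over replicates thus did not always follow the direction of the genotype difference. For PPDK the loci were AT3G22570 of the lipid transfer family (0.991), the transcription factor gene bHLH39 (0.985) and ACS6, which encodes an enzyme of ethylene synthesis (0.984). AT3G22570 was lower in the mutant (log2 change -1.59), while bHLH39 (2.64) and ACS6 (1.00) were higher, as PPDK was. For AT3G49160 the loci were scpl20 (0.914), AT2G15020 (0.873) and AT4G11190 (0.820), all of which were higher in the mutant. With 6 arrays and 2 means removed these values are descriptions, each the highest of a search over the other named loci.

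**Figure D4:**
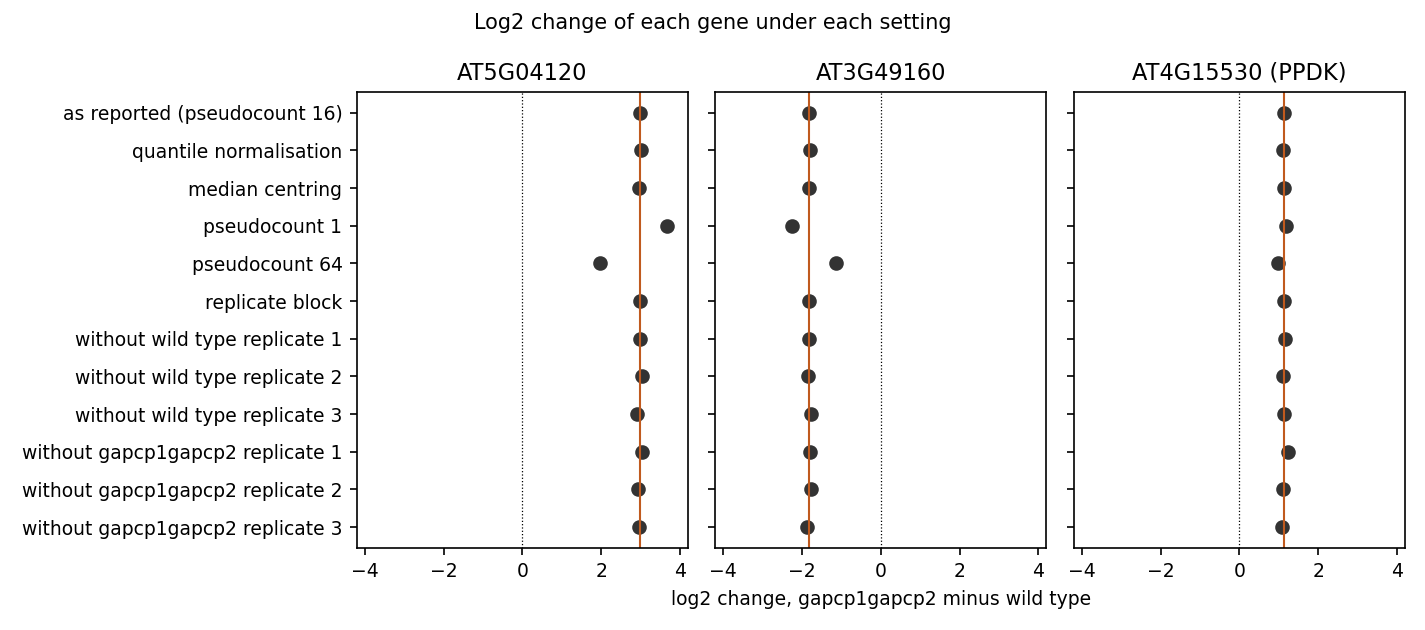
Log2 change between gapcp1gapcp2 and wild type (x axis) of each gene under each processing setting (y axis), with the reported value as an orange line and 0 dotted. The sign is the same in every setting for each gene, which the lack of overlap between the genotypes fixed beforehand for most settings. The added constants of 1 and 64 move AT5G04120 and AT3G49160 the most.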

How the data were processed

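The authors deposited a linear intensity for each probe set on each array. The submitters' processing notes name GCOS, and no source used here gives the scaling. The authors' deposited table gives group mean intensity, a signed fold change score with bounds, the difference of means and a p-value for 274 probe sets, of which 256 belong to 1 locus and 18 are shared and were not named. Of the 256 loci, 255 matched a TAIR10.1 RefSeq name.

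Negative intensities (1.85% of values) were raised to 0, and analyses used log2(intensity + 16) with no further normalisation. A fold on that scale understates changes of dim probe sets. Samples were grouped by their titles. The arrays, 3 per group, limit the precision. All 22746 probe sets were fitted with limma 3.58.1 in R 4.3.3 (lmFit, eBayes, two-sided, Benjamini-Hochberg). The SEs of log2 changes are the moderated ones of this fit. The fit, and no other step, was tried on simulated arrays with independent noise. Changes were added there only to probe sets at or above the median signal, so dim ones were not covered. The genes and lists were chosen with earlier results of these data known. Named genes are the 3 genes, list members with a named probe set, and the 3 most similar named loci by each measure. Sequence features were planned and not examined. Alternatives were quantile normalisation, median centring, constants of 1 and 64, leaving out arrays, the replicate block and, for the counts of calls, a filter on dim probe sets, trend with robust moderation and array weights. Python 3.11.15, pandas 2.3.3, numpy 2.4.6 and matplotlib 3.10.9 were used.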

Additional observations from a re-analysis of the deposited data

How the results depend on the processing

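None of the 33 alternative log2 changes of the 3 genes reversed, and 28 stayed within 1 within-group SD of the reported value. The added constants and the left-out arrays could not reverse a sign, because the genotypes did not overlap. The replicate block cannot move a log2 change in this balanced design. The lack of reversals is thus no evidence of its own for genes chosen on this difference. The exceptions came from the added constant, with AT5G04120 at 3.68 (constant 1) and 1.98 (64), AT3G49160 at -2.26 and -1.15, and PPDK at 0.99 (64). Of the 33 values, 3 shifted by more than 1.5-fold. With 1 array left out the range was 2.91 to 3.04 for AT5G04120, -1.88 to -1.76 for AT3G49160 and 1.08 to 1.23 for PPDK. Of 297 alternative values of the 27 other named genes, 37 moved beyond 1 within-group SD, 3 shifted by more than 1.5-fold and 0 reversed. The genotypes did not overlap in these genes either, so most settings could not reverse them. The count of probe sets called higher (1334) was 620 to 1362 when 1 array was left out, with 805, 620 and 637 when that array was wild type replicate 2, mutant replicate 2 or mutant replicate 3, and array weights gave 2042. The count called lower (1167) was 560 to 985 when 1 array was left out, with 617, 570 and 560 without the same 3 arrays. The cause was not tested. Counting shared probe sets left 11 listed loci named. Same-numbered arrays deviated together at 0.234, 0.0186 and 0.0174, and no pairing was assumed. The replicate block gave 910 calls higher and 777 lower, and it left the log2 changes at 2.98, -1.81 and 1.14. Low signal limits the folds of AT5G04120 and AT3G49160 most.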
